A study of Salmo salar with 96 samples.

Results

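The step from 186 to 258 degree days (°d) in the Atlantic salmon (*Salmo salar*) was followed in 8 whole pre-hatched embryos, 4 labelled 186 °d and 4 labelled 258 °d, out of 96 samples in the series. Degree days are the days since fertilization multiplied by the water temperature. All 8 embryos came from hatchery eggs of the Neva strain, were unsexed in the labels, and had received no treatment. Embryos were dissected from the egg and their yolk sac was cut away. The counts of 220 panel genes were measured by nCounter hybridization, in which barcoded probes are counted without amplification. All 4 samples of each stage entered every comparison unless stated. The gene-by-gene tests also drew on alevin and fry of the series for their estimate of spread, the fry being of mixed age and diet. The labels give the samples of a stage as separate embryos, and do not say whether they shared parents. In a whole embryo, fewer cells of a type and less RNA per cell cannot be told apart.

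The panel was built around genes associated with the age at which salmon mature. VGLL3 is a cofactor that binds TEAD transcription factors. TEADs are also the DNA-binding partners of YAP1 and WWTR1, the coactivators that the Hippo kinase cascade controls. AKAP11 anchors protein kinase A (PKA), and SIX6 is a homeobox factor of the eye, hypothalamus and pituitary. In the period before hatching the somites, brain, eyes, skeleton and circulation of a teleost embryo are being laid down. The salmon genome was duplicated in an ancestor of salmonids, so most panel genes are present as paralogs, written with a final letter.

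Total counts were 350522 to 480697 per sample at 186 °d and 265362 to 335325 at 258 °d. Each sample was scaled on 6 reference genes, by their geometric mean: *vdraa*, *vdrab*, *rxrbaa*, *prkar1aa*, *ef1ac* and *rps20*. Such values are called scaled counts. Against the positive controls, the reference genes themselves were not at the same level in both stages. Per 100 counts of the positive control probes, which are spiked into each reaction, their geometric mean was 63.2, 47.1, 50.4 and 54.8 at 186 °d and 29.2, 38.0, 33.5 and 42.5 at 258 °d, in replicate order. Each reaction had received the same mass of total RNA. The stages did not overlap (exact two-sided permutation test, p = 0.0286, the smallest that 4 against 4 samples allow), and the 258 °d mean was 0.664 times the 186 °d mean. The counts of the whole panel without *gapdh*, per control count, were 0.673 times as high at 258 °d, also without overlap. That sum still held the reference genes and *ef1ab*, which took a mean of 31.9% of all panel counts at 186 °d and 18.3% at 258 °d. It left out *gapdh*, which rose to a mean of 20.5%. Scaled by the positive controls, the median log2 fold change of all genes tested was -0.51. By that median, the fall against the controls was not particular to the reference genes. All changes given below are thus relative to 6 genes that were lower, per control count, in the later embryos. With the larger scaling factors of the later embryos, the mean of the 8 negative control probes was 7.19 ± 0.632 scaled counts (SD, n = 4) at 186 °d and 9.72 ± 1.38 at 258 °d, and genes near this level have their background in the change. A mean of 20 scaled counts in at least 1 of the 4 early stages (2 embryonic stages, alevin and fry) was required for a test, which left 178 genes.

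**Figure D1:**
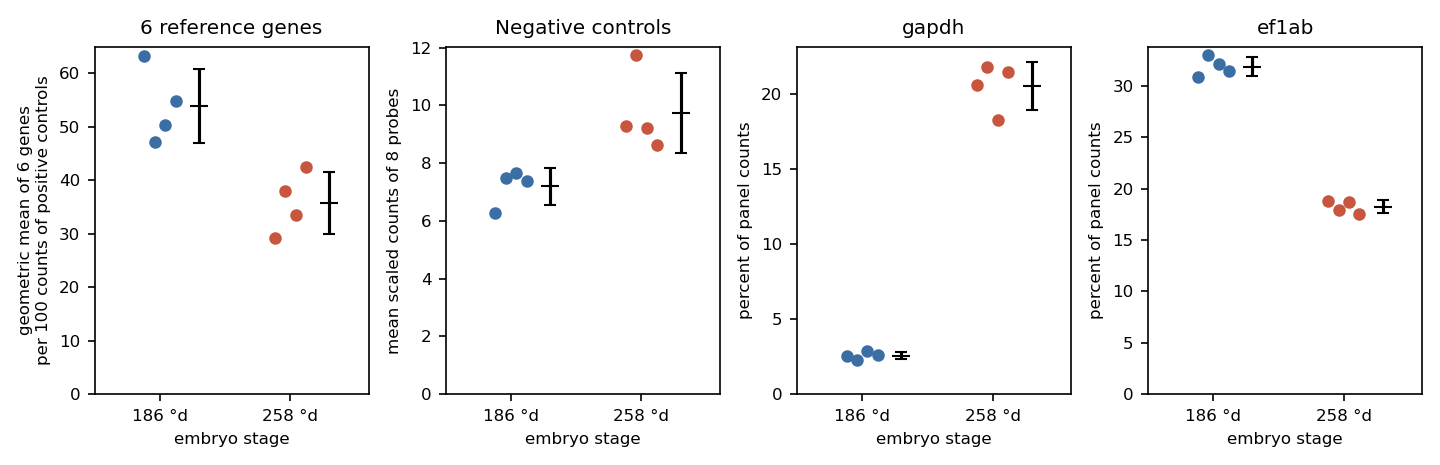
Values of each embryo at 186 and 258 °d (points), with the mean and SD of 4 embryos beside them: the geometric mean of the 6 reference genes per 100 counts of positive controls, the mean of the 8 negative controls in scaled counts, and the percent of all panel counts taken by *gapdh* and by *ef1ab*. The stages do not overlap in any panel, and *gapdh* went from a mean of 2.56% to 20.5% of the panel counts.

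Of the 178 genes, 57 changed (edgeR's quasi-likelihood test, adjusted p under 0.05), or 32.0%. Of these 34 were higher at 258 °d (19.1%) and 23 were lower (12.9%), and the median log2 fold change of all tested genes was 0.08. The values of the stages did not overlap in 53 of the 57 genes, and in 72 of all 178 (40.4%). Of the genes called, 10 had a log2 fold change above 1 and 3 one below -1. Of these 10, 8 had a mean under 20 scaled counts at 186 °d, and the others were *gapdh* and *fgfrl1*. A gene that low could be tested only through its level in a later stage. Without such genes, large changes were not mostly increases. The median level at 186 °d was 65.1 scaled counts for the genes that rose, 421 for those that fell and 120 for all genes tested. At 258 °d the median was 106 for the genes that rose and 227 for those that fell. The genes were grouped by the change between these same values. The contrast is thus partly set by the calls and the filter and is not a separate result.

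The direction of the panel as a whole depended on the scaling. With TMM scaling, which assumes that most genes do not change, 29 genes were higher and 29 lower (16.3% each), and 52 of the 57 calls were shared (*cebpda*, *col1a1b*, *foxo1c*, *glha2a* and *sox9c* were not). With the positive controls as the scale, which keeps differences in the amount of target RNA per reaction, 7 genes were higher (3.93%) and 75 lower (42.1%), at a median log2 fold change of -0.51. DESeq2 with its own size factors called 70 genes (39.3%), 24 higher (13.5%) and 46 lower (25.8%). It gave no adjusted p for 7 of the 178 genes, 2 of them among the 57 calls, and these count as not called. TMM called 58 in all (32.6%) and the positive control scaling 82 (46.1%). A fit of the 8 embryos without the later stages called 78 (43.8%), 50 higher (28.1%) and 28 lower (15.7%). It kept the 57 calls and added 21 genes, among them *apoc1b*, *col1a2*, *gha*, *greb1la*, *prkar2bb* and *spp2*. All 23 decreases were also called lower by the TMM and the positive control scaling. Of the 34 increases, 7 were called higher by all of these edgeR scalings: *gapdh*, *six3c*, *ghb*, *epsti1*, *gnrhrb*, *cadm2bb* and *lepra*. The other 27 were not called higher with the positive controls. All of them but *cebpda*, *col1a1b*, *foxo1c*, *glha2a* and *sox9c* were called higher with TMM.

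**Figure D2:**
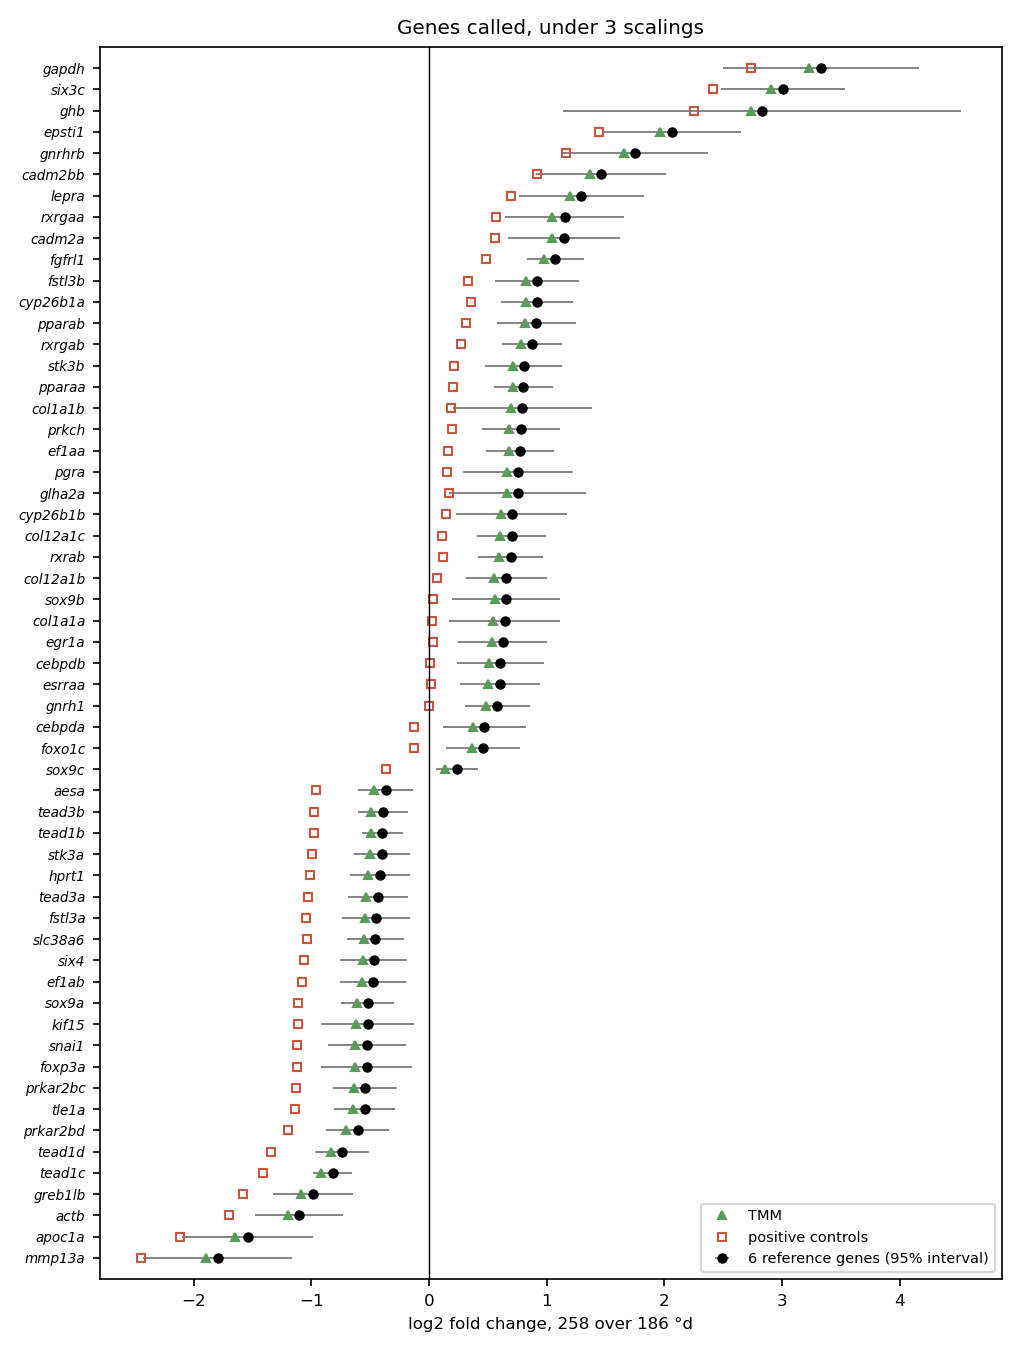
Log2 fold change (258 over 186 °d) of the 57 genes called, with the 95% interval of the 6-gene scaling and the estimates with TMM and with the positive controls. The positive control estimates lie lower throughout, and 7 of the increases are still called there.

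The largest increase of the panel was that of *gapdh*, which encodes a glycolytic enzyme. Its scaled counts were 5049, 4495, 5434 and 4874 at 186 °d and 54164, 50891, 44689 and 50056 at 258 °d. All 258 °d embryos were thus far above all 186 °d embryos, with a mean 10.1 times as high (log2 fold change 3.33, SE 0.40, adjusted p = 4e-06). The gene took 2.56 ± 0.251% of all panel counts at 186 °d and 20.5 ± 1.61% at 258 °d. It had been put on the panel as a candidate for normalization and was not among the 6 genes used.

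Of the 9 housekeeping candidates, 2 rose, 3 fell and 4 did not pass the test, at a median log2 fold change of -0.22. The 4 include *ef1ac* and *rps20*, which are reference genes that help to set the scale. Over all tested genes 19.1% rose and 12.9% fell. Scaled by the positive controls, 1 was higher and 7 were lower. The translation elongation factor genes moved in opposite directions. *ef1aa* had 8311, 8151, 7292 and 7643 scaled counts at 186 °d and 15329, 12185, 13472 and 12659 at 258 °d (log2 fold change 0.77, SE 0.14, adjusted p = 0.00024). *ef1ab* had 61407, 65867, 60844 and 59711 at 186 °d and 49623, 41868, 45820 and 40841 at 258 °d (log2 fold change -0.48, SE 0.13, adjusted p = 0.0098). Neither gene had overlapping stages, and the fall of *ef1ab* did not pass with the cartridge as a block (adjusted p = 0.053). That fit compares the stages only within 1 cartridge, with 2 embryos of 186 °d and 4 of 258 °d, as described at the end of the Results. The cytoskeletal actin gene *actb* was at 214, 185, 180.1 and 193 scaled counts in the younger and 98.2, 78.6, 81.3 and 101 in the older embryos, a mean 2.15 times lower (log2 fold change -1.11, SE 0.18, adjusted p = 0.0001). *hprt1*, of purine salvage, also fell (log2 fold change -0.42, adjusted p = 0.012), a call lost without 258 °d replicate 4 (adjusted p = 0.055) and with the cartridge as a block (adjusted p = 0.052). The RNA polymerase subunit genes *rpabc2a* and *rpabc2b* gave log2 fold changes of -0.22 and -0.09 and did not pass.

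None of the 6 reference genes passed the test in the fit of all early stages. The widest were *ef1ac*, at 134 ± 12.5 and 105 ± 9.06 scaled counts (log2 fold change -0.36, adjusted p = 0.089), and *rxrbaa*, at 78.5 ± 6.28 and 96.9 ± 6.81 (log2 fold change 0.31, adjusted p = 0.18). *rps20*, which encodes a ribosomal protein, was at 35530 ± 1339 and 34178 ± 1568. The scaling sets the geometric mean of these genes equal in every sample, so their changes are relative to each other. With 4 of them (*prkar1aa* and *vdrab* left out), 31 genes were higher and 25 lower. Fitted in the 8 embryos alone, *rxrbaa* and *vdraa* were called higher and *ef1ac* lower. Of the 6, 1 was called lower with TMM scaling, 4 with DESeq2 and 4 with the positive controls.

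Among the tested genes, 10 had a mean under 20 scaled counts at 186 °d and of 20 or more at 258 °d, and 8 of these were called higher. The genes were chosen by these same means, so the direction is not a separate result. The number of panel genes above the highest negative control averaged 159.25 per embryo at 186 °d and 159.5 at 258 °d. *six3c*, a homeobox gene of the SIX3 family that acts in forebrain and eye formation, was at 5.38, 5.69, 5.81 and 7.51 scaled counts at 186 °d and at 58.5, 60.5, 38.2 and 41.6 at 258 °d. In the younger embryos it was below the highest negative control in all 4 samples, and in the older ones above it in all 4. The log2 fold change was 3.01 (SE 0.25, adjusted p = 5.8e-08), and its lower end is set by background counts.

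*ghb*, 1 of the growth hormone paralogs, had 2.48, 2.84, 5.28 and 5.51 scaled counts at 186 °d and 14.9, 31.3, 44.0 and 24.4 at 258 °d. It exceeded the highest negative control in 0 of 4 and 3 of 4 embryos, and the fitted log2 fold change had a wide interval, 1.14 to 4.52 around 2.83 (adjusted p = 0.011). With the cartridge as a block the adjusted p was 0.052. Its paralog *gha* was at 5.48 ± 3.07 and 11.7 ± 2.38 scaled counts (log2 fold change 1.09, adjusted p = 0.28). *gha* was called in the fit of the 8 embryos alone.

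*epsti1*, whose mammalian counterpart responds to interferon, lies near *vgll3a* on chromosome 25. Its scaled counts were 14.1, 11.4, 14.8 and 11.0 at 186 °d and 68.4, 61.9, 57.2 and 30.9 at 258 °d. None of the younger and all of the older embryos exceeded their highest negative control (log2 fold change 2.07, SE 0.28, adjusted p = 1.9e-05). *gnrhrb*, a receptor gene for gonadotropin-releasing hormone, rose from 11.2, 12.5, 14.8 and 12 to 49.6, 44.5, 38.2 and 38.8 scaled counts (log2 fold change 1.75, SE 0.30, adjusted p = 0.00015). It showed the same pattern against the negative controls, with 0 of 4 and 4 of 4 embryos above them.

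The leptin receptor gene *lepra* was at 11.2, 17.1, 10.6 and 16.5 scaled counts at 186 °d and 44.6, 34.8, 27.4 and 29.4 at 258 °d (log2 fold change 1.29, SE 0.25, adjusted p = 0.00055). Both tested CADM2 genes, of a family of cell adhesion molecules found at synapses, rose as well. *cadm2bb* went from 15.3, 22.8, 17.4 and 14.5 to 39.7, 62.6, 26.5 and 61.7 scaled counts, with a wide spread in the older embryos and no overlap (log2 fold change 1.46, SE 0.26, adjusted p = 0.00025). *cadm2a* was at 13.2 ± 1.82 scaled counts in the younger and 29.1 ± 3.17 in the older embryos (log2 fold change 1.14, adjusted p = 0.00062). The third, *cadm2ba*, was at 17.5 and 17.1 scaled counts and was not tested.

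The eighth gene was *rxrgaa*, a retinoid X receptor gene, at 12.4 ± 3.27 and 27.4 ± 5.60 scaled counts (log2 fold change 1.15, SE 0.24, adjusted p = 0.0009). When the mean of the negative controls was subtracted, its adjusted p was 0.057, while the other 7 of the 8 genes passed. In the opposite direction, 1 gene (*arhgap6e*) went from above to below 20 scaled counts, and it did not pass the test. In 16 tested genes both embryonic means were under 20, and 2 of them were called higher: *glha2a*, a gonadotropin alpha subunit gene, and *pgra*, a progesterone receptor gene. Neither passed with the negative controls subtracted (adjusted p = 0.32 and 0.21), and the scaled mean of the negative controls was itself higher by 0.43 on the log2 scale. Of the 8 fits that left out 1 embryo, *glha2a* was lost in 7 (all but that without 258 °d replicate 1, adjusted p up to 0.16) and *pgra* in 3 (without 186 °d replicate 2 or 258 °d replicate 2 or 3, adjusted p up to 0.088), and *pgra* was lost with the cartridge as a block (adjusted p = 0.098).

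**Figure D3:**
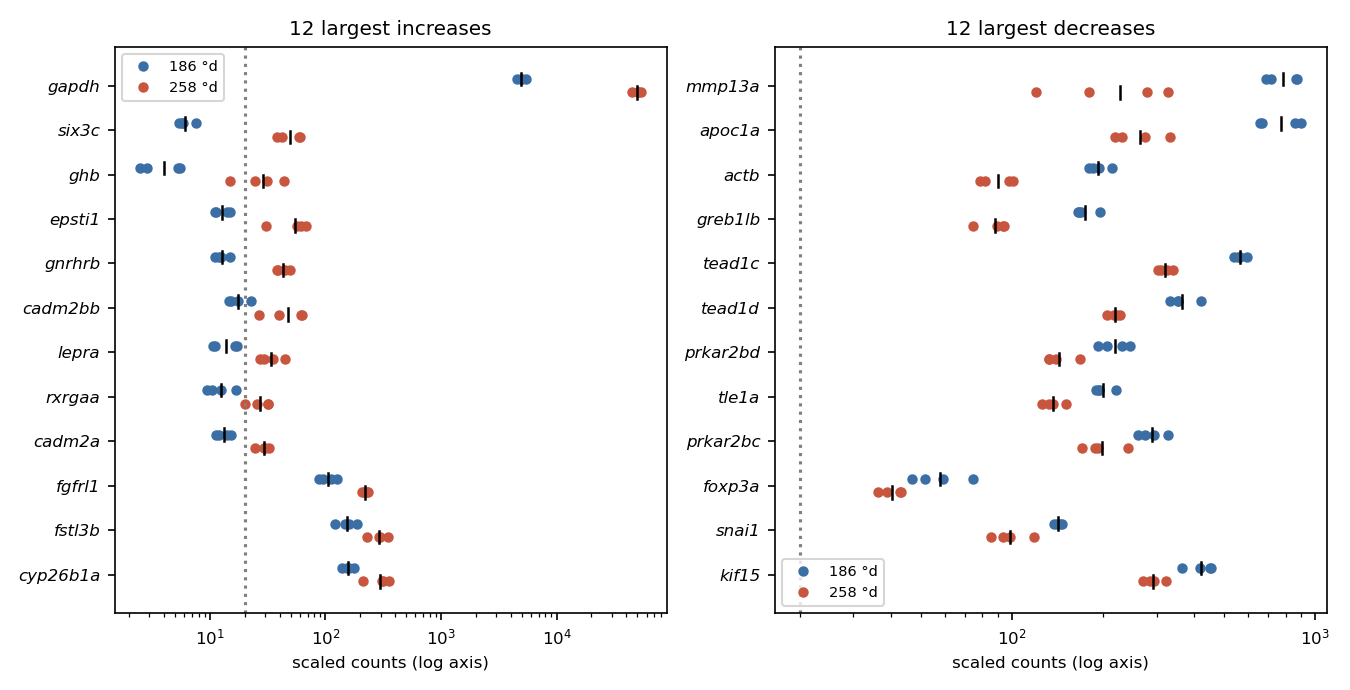
Scaled counts (log axis) of each of the 4 embryos at 186 °d and the 4 at 258 °d for the 12 largest increases and the 12 largest decreases among the genes called without overlap; short lines are means and the dotted line marks 20 scaled counts. Of the 12 increases, 8 cross that line, and all decreases start above it. A gene below the line in both embryonic stages could be tested only through alevin or fry. The contrast is thus largely set by the filter and is not a separate result.

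Retinoic acid patterns the embryonic axis, hindbrain and limbs through nuclear receptors that pair with retinoid X receptors, and CYP26 enzymes break it down. Of the 14 tested genes of the retinoid and vitamin D list, 5 rose, 0 fell and 9 did not pass, at a median log2 fold change of 0.28. The 9 include *vdraa*, *vdrab* and *rxrbaa*, which are reference genes that help to set the scale. Across all tested genes 19.1% rose and 12.9% fell, at a median of 0.08. *cyp26b1a* had 155, 177, 160.0 and 140.1 scaled counts at 186 °d and 209, 354, 311 and 317 at 258 °d (log2 fold change 0.92, SE 0.15, adjusted p = 9.4e-05). The older embryos were all higher, with replicate 1 the lowest of them. That embryo was also the lowest for the paralog *cyp26b1b*, where its 35.7 scaled counts lay below all the 186 °d embryos and the other 258 °d embryos had 119, 103 and 97.6. *cyp26b1b* passed the test (log2 fold change 0.70, adjusted p = 0.022) but not without 186 °d replicate 3 or 4 or 258 °d replicate 2, 3 or 4 (adjusted p = 0.051 to 0.11), nor with the cartridge as a block (adjusted p = 0.053). Among the receptors, *rxrgab* rose from 169 ± 6.83 to 310.5 ± 32.6 scaled counts (log2 fold change 0.88, adjusted p = 2.4e-05) and *rxrab* from 222 ± 20.7 to 358 ± 23.7 (log2 fold change 0.69, adjusted p = 0.00044). With the positive controls as the scale none of the 5 was called and 3 other genes of the list were lower.

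Collagen type I forms the fibres of skin, bone and tendon, and type XII coats such fibres. Of the 7 genes of this list, which includes *aebp1*, 4 rose and 0 fell, at a median log2 fold change of 0.64. The shares over all tested genes were 19.1% higher and 12.9% lower. *col12a1c* rose from 1759 ± 87.0 to 2864 ± 127 scaled counts (log2 fold change 0.70, adjusted p = 0.00067) and *col12a1b* from 273 ± 25.9 to 431 ± 38.7 (log2 fold change 0.66, adjusted p = 0.0044). *col12a1b* was not called with the cartridge as a block (adjusted p = 0.053). Their paralog *col12a1a* was at 561 ± 45.2 and 548 ± 53.8 and did not pass.

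For *col1a1a* the scaled counts were 14390, 12968, 13062 and 13327 at 186 °d and 24125, 18240, 21115 and 20379 at 258 °d (log2 fold change 0.64, adjusted p = 0.035). For *col1a1b* they were 1615, 1528, 2210 and 2356, and then 3945, 2806, 3379 and 3234 (log2 fold change 0.79, adjusted p = 0.037). Neither had overlapping stages. Both calls were weak. *col1a1a* was lost without any 1 embryo other than 258 °d replicate 2 (adjusted p = 0.053 to 0.098). *col1a1b* was lost without 186 °d replicate 1 or 2 or 258 °d replicate 1, 3 or 4 (adjusted p = 0.057 to 0.11) and with the cartridge as a block (adjusted p = 0.27). *col1a2*, whose product is the partner chain, did not pass (log2 fold change 0.52, adjusted p = 0.097), though its stages did not overlap. It was called in the fit of the 8 embryos alone. With the positive controls as the scale 0 of the 7 were higher and 2 lower.

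Cartilage and bone regulators were split. *mmp13a*, which encodes a collagenase of the matrix metalloproteinase family, had the largest decrease of the panel. Its scaled counts were 866, 869.7, 687 and 718 at 186 °d and 279.7, 180.2, 327 and 119.9 at 258 °d, a mean 3.46 times lower (log2 fold change -1.80, SE 0.30, adjusted p = 0.00015). *sox9a*, a paralog of the gene for the cartilage factor SOX9, fell from 4077, 4120, 3789 and 3873 to 2766, 2864, 2664 and 2767 (log2 fold change -0.52, SE 0.11, adjusted p = 0.00085). Its spread within a stage was small, and the stages were well apart. *sox9b* and *sox9c* were called higher (log2 fold changes 0.65 and 0.24, adjusted p = 0.028 and 0.043), but *sox9c* was lost in all 8 fits without 1 embryo (adjusted p = 0.057 to 0.13), and *sox9b* in all but those without 186 °d replicate 1 or 258 °d replicate 4 (adjusted p = 0.055 to 0.088). *sox9c* was also lost with the cartridge as a block (adjusted p = 0.12). The stages of *sox9b* overlapped. With the negative controls subtracted neither *sox9b* nor *sox9c* was called (adjusted p = 0.11 and 0.063). *sox9d* did not pass (log2 fold change 0.12). In all, 2 of the 8 tested genes of this list rose and 2 fell, beside 19.1% and 12.9% of all tested genes.

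Peroxisome proliferator-activated receptors and CEBP factors control genes of fat metabolism and fat cell formation. Of 13 tested genes of the adipogenic list, 4 rose and 0 fell, at a median log2 fold change of 0.05 against 0.08 for all genes, of which 19.1% rose and 12.9% fell. When scaled by the positive controls, 0 of the 13 were higher and 6 lower. *pparaa* rose from 111, 102, 77.6 and 99.1 to 164, 157, 191 and 170.1 scaled counts (log2 fold change 0.80, adjusted p = 5.3e-05). *pparab* rose from 45.9, 42.1, 48.1 and 58.1 to 88.3, 88.4, 104 and 85.4 (log2 fold change 0.91, adjusted p = 0.00022), and the 95% intervals of these paralogs overlapped (0.55 to 1.05 and 0.58 to 1.25). *cebpda* and *cebpdb* were called with log2 fold changes of 0.47 and 0.61 (adjusted p = 0.04 and 0.012). Without 258 °d replicate 3 they were at adjusted p = 0.14 and 0.061, and *cebpda* was lost in all the other fits without 1 embryo except that without 258 °d replicate 4. With the cartridge as a block *cebpda* was not called (adjusted p = 0.053). The *cebpa*, *klf15* and *pparg* genes that were tested did not pass.

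2 further increases with a tight fit were those of genes for receptors and binding proteins. *fgfrl1*, which encodes a fibroblast growth factor receptor without a kinase domain, had 112, 126, 95 and 87.1 scaled counts at 186 °d and 217, 233, 226 and 207 at 258 °d (log2 fold change 1.07, SE 0.11, adjusted p = 9.3e-07). *fstl3b*, of a secreted protein that binds activins, had 187, 159, 122 and 148, and then 227, 349, 289.5 and 298 (log2 fold change 0.92, SE 0.17, adjusted p = 0.00036). Neither was called with the positive controls as the scale (adjusted p = 0.059 and 0.32).

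After *mmp13a*, the largest decrease was that of *apoc1a*, which encodes an apolipoprotein of the particles that carry lipid in blood. Its scaled counts were 667, 858, 902 and 659 at 186 °d and 231, 332, 275 and 219 at 258 °d, a mean 2.92 times lower (log2 fold change -1.54, SE 0.27, adjusted p = 0.00017). *apoc1b* was at 1043, 1975, 1642 and 1057, and then at 573, 1047, 776 and 563, with overlap (log2 fold change -0.95, SE 0.50, adjusted p = 0.16). The third gene of the yolk, liver and blood list, *spp2*, had 2.07, 5.12, 4.22 and 2.50 scaled counts and then 15.9, 9.05, 26.5 and 5.74 (adjusted p = 0.19). Both *apoc1b* and *spp2* were called in the fit of the 8 embryos alone. The yolk sac had been removed by hand, and the part of any yolk tissue left on the embryos in these values was not tested.

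*greb1lb*, a paralog of a gene needed in mammals for kidney and genital tract formation, fell from 166, 196, 165 and 169 to 93.2, 93.9, 89.6 and 74.6 scaled counts (log2 fold change -0.99, SE 0.16, adjusted p = 0.00014). *greb1la* was at 34.9 ± 3.15 and 24.7 ± 4.00 and did not pass (log2 fold change -0.49, adjusted p = 0.065), with stages that did not overlap. It was called in the fit of the 8 embryos alone.

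In the Hippo list, 19 of 20 genes were tested, of which 1 rose and 6 fell, at a median log2 fold change of -0.12 against 0.08 for all genes. Among all tested genes 19.1% rose and 12.9% fell. Of the 7 TEAD genes, 5 fell. *tead1c* had 598, 564, 539 and 557 scaled counts at 186 °d and 311, 339.6, 326 and 303 at 258 °d (log2 fold change -0.82, SE 0.08, adjusted p = 3.5e-07). *tead1d* had 419.5, 354, 331 and 352, and then 228, 223, 217 and 206 (log2 fold change -0.74, SE 0.11, adjusted p = 5.3e-05). These were the largest falls of the list, and the stages did not overlap in either gene. *tead1b*, *tead3a* and *tead3b* fell by 0.40, 0.44 and 0.40 on the log2 scale (adjusted p = 0.0011, 0.0097 and 0.0051). *tead1a* (log2 fold change -0.12) and *tead2* (log2 fold change -0.17) did not pass.

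The Hippo kinase genes *stk3a* and *stk3b* moved in opposite directions. *stk3a* had 633, 610.3, 603 and 636 scaled counts at 186 °d and 396, 537, 505 and 437 at 258 °d (log2 fold change -0.40, adjusted p = 0.0099). *stk3b* had 25.7, 21.6, 22.7 and 23.0, and then 36.7, 39.0, 45.6 and 41.6 (log2 fold change 0.80, adjusted p = 0.00052). The 4 *lats* genes, whose kinases act below STK3, gave log2 fold changes of -0.17 to 0.10 and did not pass. Neither did the coactivator genes *yap1* (0.16), *wwtr1a* (-0.13) and *wwtr1b* (0.16). With the cartridge as a block the falls of *tead3a*, *tead3b* and *stk3a* were not called (adjusted p = 0.068, 0.069 and 0.052). Each of them was called in the samples of the shared cartridge alone. The counts of the list were 1 higher and 7 lower with TMM, 1 and 10 with DESeq2 and 0 and 11 with the positive controls.

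Regulatory subunits of PKA hold its catalytic subunits inactive until cyclic AMP binds. Of the 13 tested, which include the reference gene *prkar1aa*, 2 fell and 0 rose, at a median log2 fold change of 0.07, where 12.9% of all genes fell. Both genes that fell encode type II beta subunits. The list had 4 genes lower with DESeq2 and 5 with the positive controls. *prkar2bd* went from 219 ± 23.7 to 143 ± 17.0 scaled counts (log2 fold change -0.61, adjusted p = 0.0009), and *prkar2bc* from 289 ± 28.5 to 198 ± 30.2 (log2 fold change -0.55, adjusted p = 0.0031). *prkar2bc* was not called with the cartridge as a block (adjusted p = 0.053). *prkar2bb* was at 33.9 ± 5.00 and 50.3 ± 4.55, with stages that did not overlap, and just missed the threshold (log2 fold change 0.56, adjusted p = 0.052). It was called in the fit of the 8 embryos alone.

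Groucho proteins are corepressors that homeobox and other factors recruit. Of 8 genes tested, 2 fell and 0 rose, at a median log2 fold change of -0.16, where 12.9% of all genes fell and 19.1% rose. *tle1a* went from 199.5 ± 14.6 to 136 ± 10.7 scaled counts (log2 fold change -0.55, adjusted p = 0.002), and *aesa* from 823 ± 86.7 to 637 ± 52.0 (log2 fold change -0.37, adjusted p = 0.015). The call of *aesa* was lost without 186 °d replicate 1 or 2 or 258 °d replicate 1 (adjusted p = 0.052 to 0.055) and with the cartridge as a block (adjusted p = 0.081). With DESeq2 5 of the 8 were lower and with the positive controls 7.

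Besides *six3c*, the homeobox gene *six4*, which acts in muscle and sensory placodes, passed, falling from 294 ± 39.4 to 212 ± 9.03 scaled counts (log2 fold change -0.47, adjusted p = 0.011). With the cartridge as a block its adjusted p was 0.10. *six3a* and *six3b* gave log2 fold changes of 0.02 and -0.08 and did not pass. Among mesoderm and muscle regulators, *snai1*, a repressor that acts as cells leave epithelia, fell from 142 ± 3.66 to 98.9 ± 13.9 (log2 fold change -0.53, adjusted p = 0.014), a call lost without 258 °d replicate 3 (adjusted p = 0.057) and with the cartridge as a block (adjusted p = 0.053). The muscle determination genes *myf5a* and *myf5b* did not pass (log2 fold changes -0.09 and -0.25). The remaining decreases of the 12 largest were *foxp3a*, of a regulatory T cell factor in mammals, and *kif15*, of a mitotic kinesin (log2 fold changes -0.53 and -0.52, adjusted p = 0.033 and 0.039). *foxp3a* was lost in all fits without 1 embryo but those without 186 °d replicate 3 or 4 (adjusted p = 0.051 to 0.14), and *kif15* in all but that without 186 °d replicate 1 (adjusted p = 0.052 to 0.096). *foxp3a* was also lost with the cartridge as a block (adjusted p = 0.30).

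None of the age-at-maturity genes passed the test in this step with the 6-gene scaling. *vgll3a* had 21.5, 26.7, 31.2 and 24.0 scaled counts at 186 °d and 38.7, 29.9, 31.5 and 31.6 at 258 °d, with 1 younger embryo above 1 of the older ones (log2 fold change 0.35, 95% interval -0.03 to 0.72, adjusted p = 0.15). *six6a* had 51.3, 54.0, 51.2 and 54.0, and then 41.7, 59.8, 49.8 and 51.0 (log2 fold change -0.05, 95% interval -0.35 to 0.25). Under positive control scaling *six6a* was called lower (log2 fold change -0.63, adjusted p = 0.041), and *vgll3a* had a log2 fold change of -0.24 and was not called. *akap11a* had 36.4, 35.3, 44.4 and 37.0, and then 33.7, 39.0, 36.5 and 35.9 (log2 fold change -0.07, 95% interval -0.44 to 0.29). *akap11b* was at 51.3 ± 5.06 and 62.3 ± 8.72 (log2 fold change 0.27, adjusted p = 0.48), and *vgll3b* and *six6b* were under 20 scaled counts in all early stages and were not tested.

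Around *six6a* on chromosome 9, 13 panel genes were tested, of which *fgfrl1* rose and *kif15*, *six4* and *slc38a6* fell. *slc38a6*, of an amino acid transporter family, went from 236 ± 14.6 to 172 ± 16.3 scaled counts (log2 fold change -0.46, adjusted p = 0.0044). Around *vgll3a* and *akap11a* on chromosome 25, 8 genes were tested and *epsti1* was the only one called. The median log2 fold changes were 0.07 and 0.15, against 0.08 for all tested genes, of which 19.1% rose and 12.9% fell.

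The reproductive axis was mostly at background. Of 17 gonadotropin axis genes 5 were tested, and *gnrhrb*, *gnrh1* and *glha2a* were called higher, where 19.1% of all tested genes rose. *gnrhrb* and *glha2a* were under 20 scaled counts at 186 °d and could be tested only through a later stage. The share that rose is thus partly set by the filter. The list had 1 gene higher with DESeq2, 1 with the positive controls and 1 with the negative controls subtracted. *gnrh1*, a gonadotropin-releasing hormone gene, was at 34.3 ± 3.60 and 51.3 ± 5.19 scaled counts (log2 fold change 0.58, adjusted p = 0.0019), with an adjusted p of 0.086 when negative controls were subtracted. The luteinizing hormone receptor gene *lhr* was at 117 ± 6.93 and 115 ± 11.0. Of 6 steroid receptor genes 2 were called higher, *pgra*, near background, and *esrraa*. *esrraa*, of an estrogen-related receptor, rose (log2 fold change 0.60, adjusted p = 0.0083) with overlapping stages, and was not called with the cartridge as a block (adjusted p = 0.068).

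Ratios of paralogs were compared within each embryo, where the scaling factor cancels. Background counts were not subtracted and do not cancel. The 112 pairs of tested paralogs came from 50 families, and the ratio changed in 45 pairs (40.2%) of 24 families (limma, adjusted p under 0.05). With the negative controls subtracted it changed in 33 pairs. The level of a ratio also depends on the probes, so only its change is read. In 5 pairs the members were themselves called in opposite directions, from *ef1a*, *fstl3*, *sox9* and *stk3*, and the ratio changed in all 5. Of 29 pairs with 1 member called it changed in 22. The ratios use the same readings as the calls, so both results largely follow from the calls and are no separate evidence.

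The log2 ratio of *six3a* to *six3c* went from 4.19 ± 0.16 to 1.29 ± 0.41, a change of -2.90 (95% interval -3.33 to -2.47, adjusted p = 2.8e-06). For *stk3a* to *stk3b* it went from 4.71 ± 0.08 to 3.49 ± 0.18 (change -1.22, adjusted p = 1.4e-05). For *fstl3a* to *fstl3b* it went from -0.73 ± 0.21 to -2.10 ± 0.24 (change -1.36, adjusted p = 4.7e-05). In these 3 pairs no embryo of 1 stage reached the range of the other. *fstl3a* by itself fell from 91.6 ± 5.49 to 66.9 ± 6.27 scaled counts, a call lost without 186 °d replicate 1 or 258 °d replicate 1 (adjusted p = 0.051 and 0.052) and with the cartridge as a block (adjusted p = 0.092).

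The ratio of *lepra* to *leprb* rose by 1.54 on the log2 scale (95% interval 1.29 to 1.79, adjusted p = 2.8e-06), and that of *ef1aa* to *ef1ab* by 1.25 (1.06 to 1.44, adjusted p = 2.8e-06). *prkar2bb* rose by 1.18 against *prkar2bd* (0.96 to 1.41, adjusted p = 1e-05), although *prkar2bb* alone had missed the threshold. Within *tead1*, *tead1a* rose by 0.69 against *tead1c* (0.46 to 0.93, adjusted p = 0.00048). In other pairs no change of the ratio passed the test. The change between *tead3a* and *tead3b* was -0.05 (-0.27 to 0.16), between *tead1c* and *tead1d* -0.09 (-0.29 to 0.11), and between *pparaa* and *pparab* -0.11 (-0.44 to 0.23). The reference genes *vdraa* and *vdrab* also changed against each other, *vdraa* rising by 0.41 against *vdrab* (0.18 to 0.63, adjusted p = 0.0095).

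**Figure D4:**
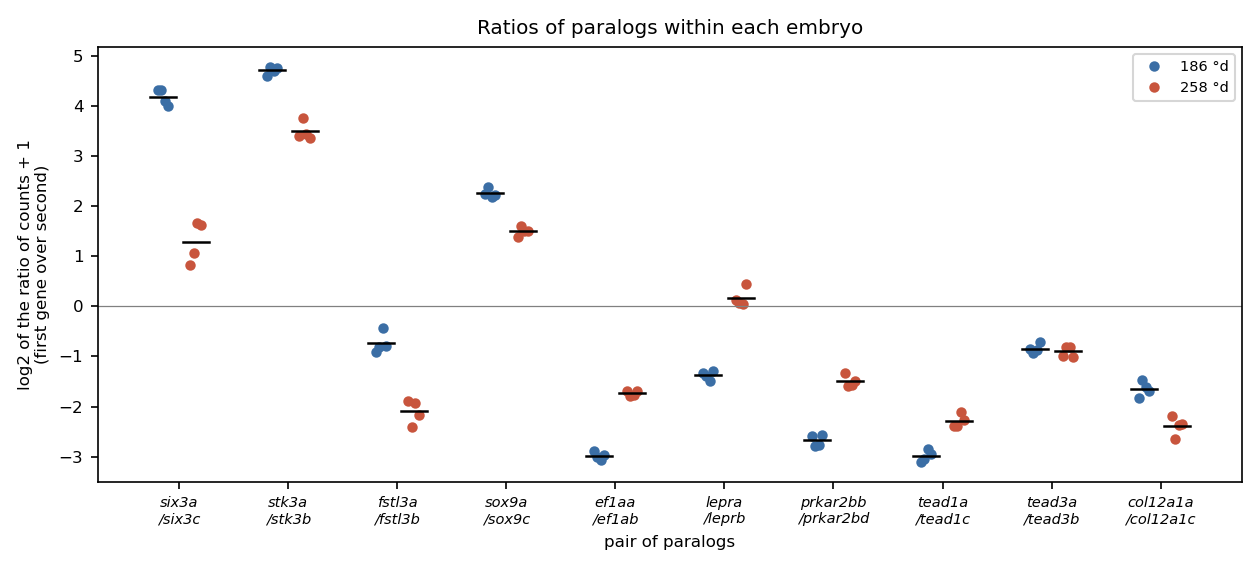
Log2 ratio of counts (with 1 added) of 10 pairs of paralogs in each of the 4 embryos at 186 °d and the 4 at 258 °d; short lines are means. The stages lie apart in 9 of these chosen pairs and overlap for *tead3a* to *tead3b*. Of all 112 pairs the ratio changed in 45 (40.2%), 38 of them without overlap.

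Of the 6 tested genes of the KDM5B and GREB1L list, 1 passed, against 32.0% of all tested genes. Of 5 early response genes, *egr1a* rose from 50.0 ± 4.35 to 77.6 ± 16.0 scaled counts (log2 fold change 0.63, adjusted p = 0.011), a call lost without 258 °d replicate 1 (adjusted p = 0.052). Of the DLK1, FOXO1 and FSTL3 list, *foxo1c* was called higher besides *fstl3b* (log2 fold change 0.46, adjusted p = 0.023), and it was lost without 186 °d replicate 1 or 258 °d replicate 1 or 3 (adjusted p = 0.058 to 0.084), with the cartridge as a block (adjusted p = 0.12) and with TMM scaling.

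**Figure D5:**
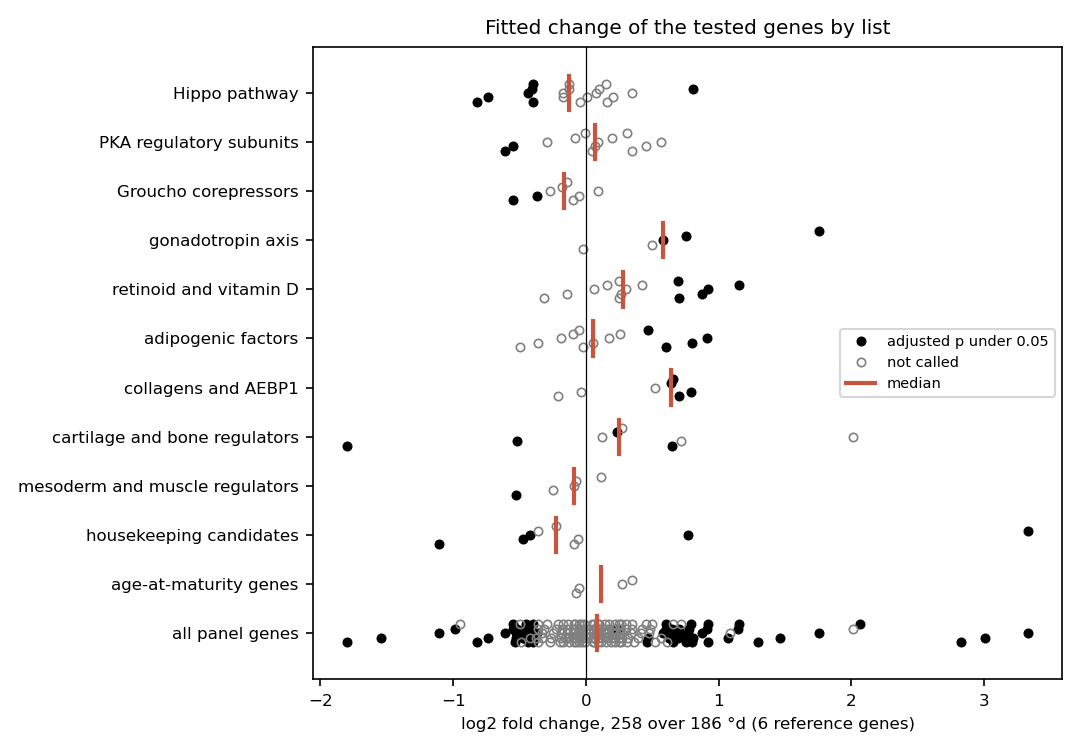
Log2 fold change (258 over 186 °d, 6-gene scaling) of each tested gene by list, with genes called as filled points and the median of each list as a line. The medians of the Hippo, Groucho, mesoderm and housekeeping lists lie below 0, and that of collagens is 0.64.

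2 of the 186 °d embryos (replicates 1 and 2) were read on another cartridge, the 12-lane unit of the instrument, than all other embryos. With the cartridge as a block, 38 genes were called, 26 higher and 12 lower, and 20 of the 57 calls were lost, 9 higher and 11 lower. In the samples of the shared cartridge alone (2 embryos against 4), 58 genes were called, 37 higher and 21 lower, and 10 of the 57 calls were lost. These 10 were among the 20. Lost with the block but called there were *col12a1b*, *ef1ab*, *ghb*, *hprt1*, *prkar2bc*, *six4*, *snai1*, *stk3a*, *tead3a* and *tead3b*. The sign of all 57 was kept in both. The other cartridge held no 258 °d embryo, so the fit with the block also compares the stages only within the shared cartridge. The fits are thus not separate checks of each other. Without 1 embryo at a time 44 to 51 genes were called, fewest without 258 °d replicate 3, and 40 of the 57 calls held in all 8 such fits.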

How the data were processed

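Total RNA of whole embryos was hybridized to an nCounter panel of 220 genes, with 8 negative and 6 positive control probes. The deposited raw counts were used for all tests. The authors' deposited normalized signal holds 211 genes and equals the counts times a factor made in nSolver from the geometric mean of 6 reference genes, which they chose for low variation. It differed by at most 0.0094% from that product over 7426 values. All columns could be matched to a sample through their labels (0 unmatched).

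The members and gene lists were chosen with earlier results of these data known. Raw counts of the 18 early-stage samples (embryos, alevin and fry) were fitted with edgeR 4.0.16 (glmQLFit, glmQLFTest) with the log of the 6-gene factor as offset, for 178 genes, and p-values were adjusted by Benjamini-Hochberg over them at a threshold of 0.05. The fry were of 1119 and 1320 °d, came from different rearing sites and partly had a low-fat diet. They were fitted as a single group. Named genes were the age-at-maturity, reference and housekeeping genes, the 12 largest increases and 12 largest decreases without overlap, and list members where their list is described. Ratios of paralogs (log2 of counts plus 1, limma 3.58.1) were added after the data had been seen, as were their alternatives. Single values of 4 against 4 samples were compared by an exact two-sided permutation test.

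Alternatives were TMM, 4 reference genes and positive controls as scale, DESeq2 1.42.0, limma, other filters, the 8 embryos alone, negative controls subtracted, the cartridge and the replicate number as blocks, and each embryo left out. In simulated counts for this comparison (178 genes), 18 of 20 changes of 1 and 8 of 20 changes of 0.6 on the log2 scale were recovered, with 0 of 138 unchanged genes called. These counts were made and fitted with the same scaling factors and held no cartridge effect. They thus cannot show errors that come from the scaling or the cartridge. No pair of replicates agreed within counting noise. 169 probes were matched by accession to RefSeq (Ssal_v3.1), used only for chromosome and neighbours. No genome build was named in the sources used here. The negative controls limit what can be seen of genes near 10 scaled counts. R 4.3.3 and Python 3.11.15 were used. The results of some genes and lists are not reported here.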

Additional observations from a re-analysis of the deposited data

Results flagged for a closer look

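Among the 57 called and the named genes, 6 values lay far from the other 3 embryos of their stage by Dixon's test, out of 142 sets of 4 values tested. Chance flags about 1 in 20 such sets, and 6 of 142 is close to that share. At 186 °d these were all replicate 2, with *akap11b* at 43.8 scaled counts (others 53.0 to 54.6), *greb1lb* at 196 (others 165 to 169) and *tle1a* at 221 (others 190 to 194). At 258 °d replicate 3 was high in *cebpda*, at 556 (others 425 to 439), and in *pparab*, at 104 (others 85.4 to 88.4). Replicate 1 of that stage was high in *ef1ac*, a reference gene, at 118 (others 98.3 to 102). Of these genes the call of *cebpda* was lost without the embryo concerned (adjusted p = 0.14), and those of *greb1lb*, *tle1a* and *pparab* were kept in all 8 fits without 1 embryo.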

How the results depend on the processing

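The count of 57 calls stayed within 1.5 times under every alternative apart from direction. With the positive controls as scale 7 genes were higher and 75 lower; DESeq2 called 46 lower, and the cartridge as a block 12 lower. The cause of these differences was not tested. Under the positive controls, where the median of all genes moved from 0.08 to -0.51, 6 of the genes called under either scaling changed sign, beside genes called under neither: *cebpda* -0.13, *foxo1c* -0.13, *gnrh1* -0.0022 and *sox9c* -0.36, which were not called there, and *egr1d* -0.56 and *rxrbab* -0.53, which were called there only. Fits without 1 embryo called 44 to 51 genes, 24 to 30 higher and 19 to 23 lower, and 38 to 44 pairs of paralogs, against 45 with all embryos, 34 on the shared cartridge and 33 with negative controls subtracted. The 8 embryos alone gave 78 calls and limma 53. Same-numbered embryos of the stages had correlations of -0.27 to 0.53 and were not treated as pairs. These correlations cannot show whether embryos shared parents. With the replicate block 79 genes were called, 47 higher and 32 lower. Negative controls at about 10 scaled counts limit the smallest levels.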
